A study of Homo sapiens with 26 samples.

Results

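The libraries described here are the large tetraploid (4N) clones and the diploid (2N) cells of CAL51, an established human cell line from a triple negative breast cancer. They were taken by their labels and number 6 of the 26 libraries of the series: large clones L1, L2 and L3, and a 2N group made of the parental population, 2N clone 1 and 2N clone 2. The large clones were treated with 75 µM blebbistatin, an inhibitor of non-muscle myosin II that blocks the last step of cell division, for 20 hr. The drug was washed out, the cells recovered for 48 hr, and single cells were grown into clones, which the study classed by the size of cell and nucleus. The labels give the 2N libraries no drug, so tetraploidy, passage through the drug and large size cannot be told apart in this comparison. The parental library is a population and not a clone, and all 6 libraries carry the genome of a near-diploid cancer line. The single small 4N clone of CAL51 was left out. Whole genome doubling is a common event in cancer. In many cells that enter it with normal p53, the p53 pathway holds the tetraploid cell in arrest, and cells that pass that barrier can then gain or lose chromosomes. CAL51 is often used for such work because it is a near-diploid line.

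The 6 libraries held 26440359 to 44508722 reads assigned to genes, with the deepest in clone L1 and the shallowest in 2N clone 1. In a gene 1 kb long, 1 read equalled 0.0246 to 0.0376 FPKM (fragments per kilobase of gene, scaled to the size of the library, so a level relative to its other genes). A change in the amount of RNA per cell that affects all genes alike would not show on this scale. In these bulk libraries fewer cells of a kind and less RNA per cell cannot be told apart. The labelled cell type was in part matched by its markers. ESR1 and PGR, the hormone receptors absent from triple negative tumours, were at 0.0217 FPKM or less in every library, and ERBB2, the third receptor, lay between 14.9 and 22.8 FPKM. Markers of basal breast epithelium were near 0, with KRT5, KRT14 and DSG3 at 0 in all 6 libraries and KRT17 at 0.152 to 1.57 FPKM. Of 8 luminal markers, these receptors included, 4 had a mean of 1 FPKM or more, among them AGR2 and XBP1, and they summed to 68.5 to 136 FPKM in the 2N libraries and 52.3 to 78.7 FPKM in the large clones. Of 8 epithelial markers 5 did, with sums of 299 to 1264 FPKM and 207 to 3900 FPKM. The 6 mesenchymal markers all had a mean of 1 FPKM or more. The defining leukocyte gene PTPRC and endothelial gene PECAM1 were at 0.48 FPKM or less in every library. Not all markers of other cell types were that low. The endothelial gene CDH5 was at 3.24 FPKM and the intestinal gene CDH17 at 4.66 FPKM in the parental library. Of 6 fibroblast matrix genes 4 had a mean of 1 FPKM or more, with COL3A1 at 29.9 FPKM in the parental library and PDGFRB at 3.08 to 23.7 FPKM.

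The libraries of the large clones differed from one another more than those of the 2N group did. The standard deviation (SD) of the log2 difference between a pair of libraries was 0.559 to 0.719 within the large group, 0.319 to 0.476 within the 2N group and 0.392 to 0.672 between the groups. The median SD of a gene was 0.15 in the 2N group and 0.28 in the large group, and 74.9% of genes varied more among the large clones. Clone L1 stood apart along the first principal component (40.3% of the variance), and 2N clone 1 and clone L2 lay at opposite ends of the second (25.5%). Clone L1 also carried a pattern by gene composition. Its difference from the 2N mean correlated with the GC content of the transcript (Pearson r = 0.385 across 11968 genes) and with log2 gene length (r = -0.198), while the other 5 libraries had r between -0.0608 and 0.0935 for GC content and between -0.0280 and 0.0510 for length. Genes are not independent replicates and share the library, so these are descriptions. Beside the results, values after removal of that pattern (an adjustment chosen after the pattern was seen) are given where they bear on a list or a chromosome.

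Large and 2N libraries were compared gene by gene on log2(FPKM + 1), the scale of every log2 difference below, which understates the change of low genes. None of 11974 genes passed (0%) limma at an adjusted p of 0.05, and the smallest adjusted p was 0.502. At an unadjusted p under 0.05 there were 308 genes higher (2.57%) and 238 lower (1.99%), 546 in all (4.56%). The 3 large clones lay above all 3 2N libraries for 730 genes (6.1%) and below them for 615 (5.14%), and 185 genes differed by more than 1 on the log2 scale, of which 79 did not overlap. The limma voom test on recovered reads also called 0 genes, with 509 at an unadjusted p under 0.05. A fit over all 26 libraries, which takes the spread from 3 cell lines, called 154 of 14835 genes (1.04%), 68 higher (0.458%) and 86 lower (0.58%) in the CAL51 large clones. Of these 154, 79 had a mean under 1 FPKM in both other lines (51.3%, against 11.4% of all genes in that fit). The median standard error (SE) of the called genes was 0.27 with the CAL51 libraries alone and 0.19 with 26 libraries. The replicates are separate clones and a population, and p values measure the spread between them. All genes named below had an adjusted p of 0.502 or more in the CAL51 fit, so their differences are given as higher or lower levels and not as calls.

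LEFTY1 (ENSG00000243709, chromosome 1, 225886282 to 225911382, minus strand, GRCh38) had the smallest p of all genes. It encodes a secreted inhibitor of NODAL, a ligand of the TGF-beta family, and is itself switched on by NODAL signalling. Its level was 14.6, 34.5 and 32.3 FPKM in the parental library, 2N clone 1 and 2N clone 2, against 2.72, 0.793 and 1.23 FPKM in L1, L2 and L3. Every large clone was below every 2N library, with a log2 difference of -3.42 ± 0.40 (SE, 3 against 3; unadjusted p = 6.31e-05, limma adjusted p = 0.502). Leaving out each library in turn gave -3.81 to -3.20. It passed in the fit of 26 libraries (limma adjusted p = 1.96e-08), where HCT116 and DLD1 had almost no LEFTY1. ID4 (ENSG00000172201, chromosome 6, 19837386 to 19840684, plus strand), an inhibitor of basic helix-loop-helix transcription factors that BMP signals induce in many cells, had 96.8, 178 and 187 FPKM in the 2N libraries and 37.7, 29.5 and 47.2 FPKM in the large clones. The groups did not overlap, and the difference was -1.95 ± 0.30 (unadjusted p = 0.00038, limma adjusted p = 0.502).

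The other ID genes overlapped between the groups. ID1 was at 331, 311 and 408 FPKM in the 2N libraries and 318, 138 and 319 FPKM in the large clones. Clone L2 was the lowest library for ID1, ID2 and ID3. The windows of 250 bases before the RefSeq start of ID4 and ID1 (GRCh38.p14) are shown because these sister genes differed in the comparison. Capitals mark CAGAC, a motif bound by SMAD proteins, searched on both strands with GGCGCC, a motif of BMP-driven SMADs, with no overlap between matches. ID4 is chr6:19837120-19837369 and ID1 is chr20:31605039-31605288, both on the plus strand.
ID4: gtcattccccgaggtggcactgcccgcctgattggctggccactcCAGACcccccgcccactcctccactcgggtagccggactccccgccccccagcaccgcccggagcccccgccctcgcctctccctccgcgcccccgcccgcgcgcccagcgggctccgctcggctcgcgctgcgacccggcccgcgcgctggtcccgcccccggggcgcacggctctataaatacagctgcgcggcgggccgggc
ID1: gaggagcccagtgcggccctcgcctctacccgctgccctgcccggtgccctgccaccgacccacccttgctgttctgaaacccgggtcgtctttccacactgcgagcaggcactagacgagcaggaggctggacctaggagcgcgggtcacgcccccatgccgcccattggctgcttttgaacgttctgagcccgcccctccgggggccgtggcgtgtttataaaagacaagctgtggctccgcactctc
The ID4 window held 1 CAGAC and no GGCGCC, and the ID1 window held neither. Among 35116 RefSeq windows of that length, 38.0% held CAGAC and 16.4% held GGCGCC. A match is a run of letters and was not tested as a site.

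Of 29 tested genes of the TGF-beta, BMP and NODAL pathways, 22 had a lower and 7 a higher mean in the large group. The median of their log2 differences was -0.23, against 0.02 over all tested genes, of which 53.8% were higher. At an unadjusted p under 0.05, 1 member was higher (2.57% of all tested genes were) and 2 were lower (1.99% were), the lower being LEFTY1 and ID4. The activin receptor ACVR2B (1.54, 1.34 and 1.52 FPKM in the 2N libraries, 0.756, 0.965 and 1.20 FPKM in the large clones), the co-receptor TGFBR3 and the shared signal carrier SMAD4 were below the 2N range in each large clone. The ligand BMP4 was 72.3, 88.8 and 61.2 FPKM in the 2N libraries and 143, 4.76 and 84.9 FPKM in L1, L2 and L3, which put L1 at the top and L2 at the bottom. The list had its lowest mean in L2, at -0.70 relative to the 2N libraries, against -0.22 in L1 and -0.00 in L3. Without L2 the count of lower members was 16 of 29, with a median of -0.13. The median was -0.12 without L1 and -0.38 without L3.

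**Figure D1:**
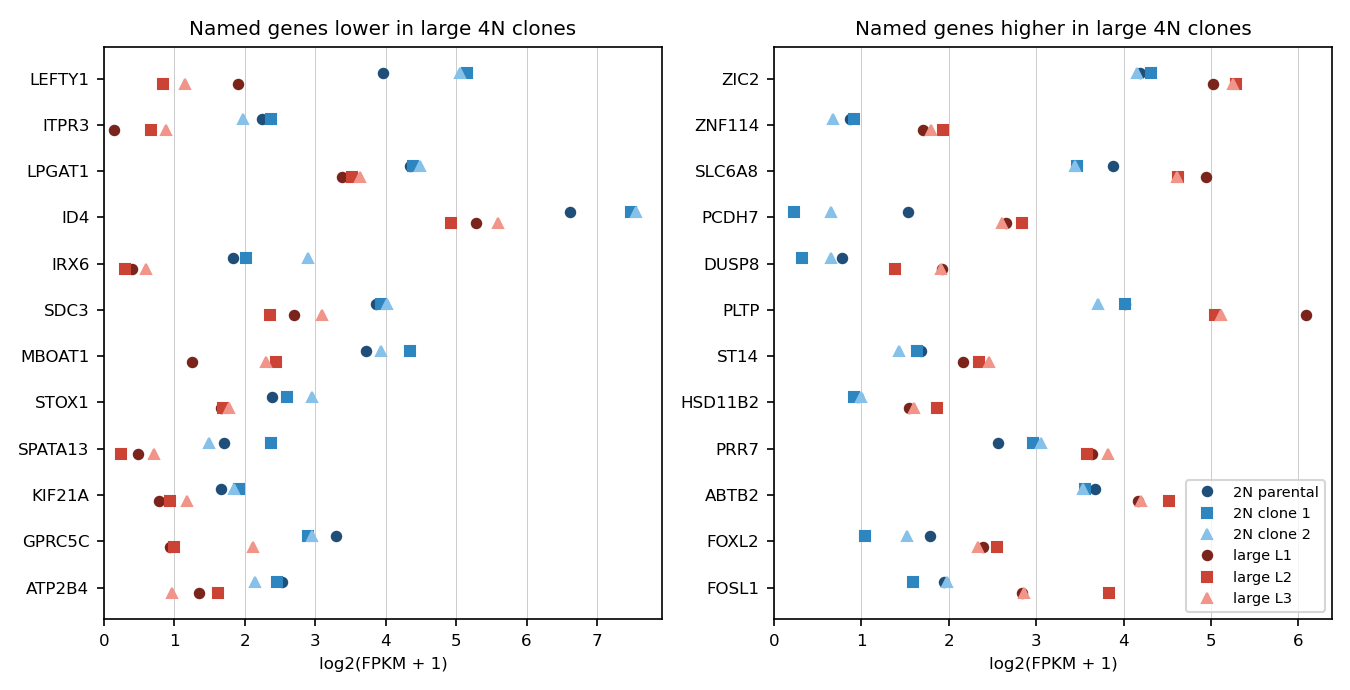
Level of the 24 named genes as log2(FPKM + 1) (horizontal axis) in each CAL51 library, with genes lower in the large clones on the left and higher on the right. Blue marks are the 3 2N libraries and red marks the 3 large clones. The red and blue marks do not overlap for any of these genes, which was a condition for naming them.

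The genes named for each direction were the 12 of smallest p whose groups did not overlap, so that the lack of overlap is not a result. Of the 24, 21 passed in the fit of 26 libraries, where 1.04% of all genes did. That fit holds the same CAL51 libraries and the same log2 differences, so this count is no separate support for genes chosen from them. ITPR3, the channel that releases calcium from the endoplasmic reticulum when inositol trisphosphate binds it, had 3.72, 4.16 and 2.92 FPKM in the 2N libraries and 0.107, 0.582 and 0.845 FPKM in the large clones (log2 difference -1.63 ± 0.23, limma adjusted p = 0.502). ATP2B4, a pump that moves calcium out through the plasma membrane, was at 4.75, 4.47 and 3.43 FPKM in the 2N libraries and 1.54, 2.08 and 0.959 FPKM in the large clones.

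A pair of lipid enzymes was lower in the large clones. LPGAT1, which acylates lysophospholipids, was tight within each group, at 19.3, 19.8 and 21.5 FPKM in the 2N libraries and 9.37, 10.5 and 11.4 FPKM in the large clones (-0.90 ± 0.14, limma adjusted p = 0.502). MBOAT1, an acyltransferase of the same kind of substrate, was at 12.1, 19.2 and 14.3 FPKM against 1.37, 4.43 and 3.90 FPKM. At the cell surface, the heparan sulfate proteoglycan SDC3 was at 13.5, 14.2 and 15.2 FPKM against 5.46, 4.12 and 7.58 FPKM. The orphan receptor GPRC5C was at 8.77, 6.43 and 6.72 FPKM against 0.908, 0.9965 and 3.33 FPKM, with L3 nearest to the 2N range. The remaining lower genes were the transcription factors IRX6 (2.57 to 6.42 against 0.226 to 0.508 FPKM) and STOX1 (4.23 to 6.78 against 2.16 to 2.43 FPKM), SPATA13 (1.80 to 4.18 against 0.184 to 0.641 FPKM) and the kinesin KIF21A (2.16 to 2.77 against 0.726 to 1.26 FPKM).

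Among the higher genes were several transcription factors. ZIC2, a zinc finger factor of early neural development, had 17.2, 18.8 and 16.7 FPKM in the 2N libraries and 31.6, 38.1 and 37.2 FPKM in the large clones (0.98 ± 0.14, unadjusted p = 0.000248, limma adjusted p = 0.502). FOXL2, a forkhead factor known from the ovary, was at 2.46, 1.06 and 1.87 FPKM against 4.24, 4.87 and 4.02 FPKM. FOSL1, the FRA1 subunit of AP-1, was at 2.84, 2.01 and 2.94 FPKM against 6.12, 13.3 and 6.28 FPKM, highest in L2. The zinc finger gene ZNF114 was at 0.595 to 0.892 FPKM in the 2N libraries and 2.27 to 2.82 FPKM in the large clones. These 4 genes had close values across the large clones except for FOSL1.

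SLC6A8, the creatine transporter, was at 13.7, 10.1 and 9.85 FPKM against 29.6, 23.6 and 23.4 FPKM (1.13 ± 0.18, limma adjusted p = 0.502). PLTP, which transfers phospholipids between lipoproteins, was at 15.1, 15.2 and 12.01 FPKM against 67.2, 32.1 and 33.7 FPKM. PCDH7, a protocadherin, was at 1.90, 0.175 and 0.57 FPKM against 5.30, 6.14 and 5.11 FPKM. Clone L1 was the highest library for SLC6A8 and PLTP, and L2 for PCDH7. The protease ST14 (matriptase) was at 1.69 to 2.22 against 3.47 to 4.48 FPKM, HSD11B2, which inactivates cortisol, at 0.886 to 0.988 against 1.93 to 2.64 FPKM, and DUSP8, a phosphatase of stress kinases, at 0.253 to 0.715 against 1.62 to 2.80 FPKM. PRR7 and ABTB2 completed the 12, at 4.92 to 7.29 against 10.9 to 13.1 FPKM and at 10.6 to 11.7 against 16.9 to 22.0 FPKM.

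The p53 targets were the list with the highest median over all 6 libraries. Without L2, keratins (0.74), the mesenchymal list (0.54), imprinted genes (0.35) and myosin II genes (0.34) were above them (0.33). The mesenchymal list was also above the p53 targets without the parental library (0.63 against 0.51) and without 2N clone 2 (0.67 against 0.60). Among the 29 tested, 28 had a higher mean in the large group, and the median of their log2 differences was 0.54 (0.02 over all tested genes). Of these targets 8 were higher at an unadjusted p under 0.05, against 2.57% of all tested genes, and 9 lay above the 2N range in each large clone, against 6.1%. None passed the adjusted threshold of limma. CDKN1A, the CDK inhibitor p21 that carries out p53 arrest, was at 41.6, 27.3 and 62.8 FPKM in the 2N libraries and 147, 162 and 53.4 FPKM in L1, L2 and L3 (1.36 ± 0.48, unadjusted p = 0.0262, limma adjusted p = 0.889). L1 and L2 were well above the 2N range and L3 was inside it. TNFRSF10B, the death receptor DR5, was at 18.5, 15.5 and 20.8 FPKM against 29.3, 39.2 and 29.5 FPKM. GDF15, a secreted stress cytokine, was at 63.4, 26.4 and 75.2 FPKM against 176, 107 and 96.6 FPKM. In both genes all large clones were above all 2N libraries.

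GADD45A, a growth arrest gene induced by DNA damage, was at 19.6, 16.7 and 19.9 FPKM in the 2N libraries and 35.9, 26.5 and 25.2 FPKM in the large clones. The pro-apoptotic gene BBC3 (PUMA) was at 6.81, 5.81 and 7.86 FPKM against 16.0, 12.1 and 8.14 FPKM, and the phosphatase PPM1D, which turns p53 off again, at 5.19, 4.89 and 5.10 FPKM against 7.71, 6.91 and 6.03 FPKM. These 3 genes also did not overlap, with L3 nearest to the 2N range in each. MDM2, the ubiquitin ligase of p53, was at 8.32, 9.55 and 8.83 FPKM against 10.7, 17.9 and 9.81 FPKM. By clone, the number of p53 targets above every 2N library was 21 of 29 in L1, 27 in L2 and 14 in L3, where 41.6%, 30.4% and 28.3% of all tested genes were. The list mean relative to the 2N libraries was 0.62, 0.82 and 0.21 in L1, L2 and L3. With each library left out in turn, 25 to 28 targets were higher, the fewest without L2 (median 0.33), and after the adjustment for length and GC content 28 were higher, with a median of 0.49.

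**Figure D2:**
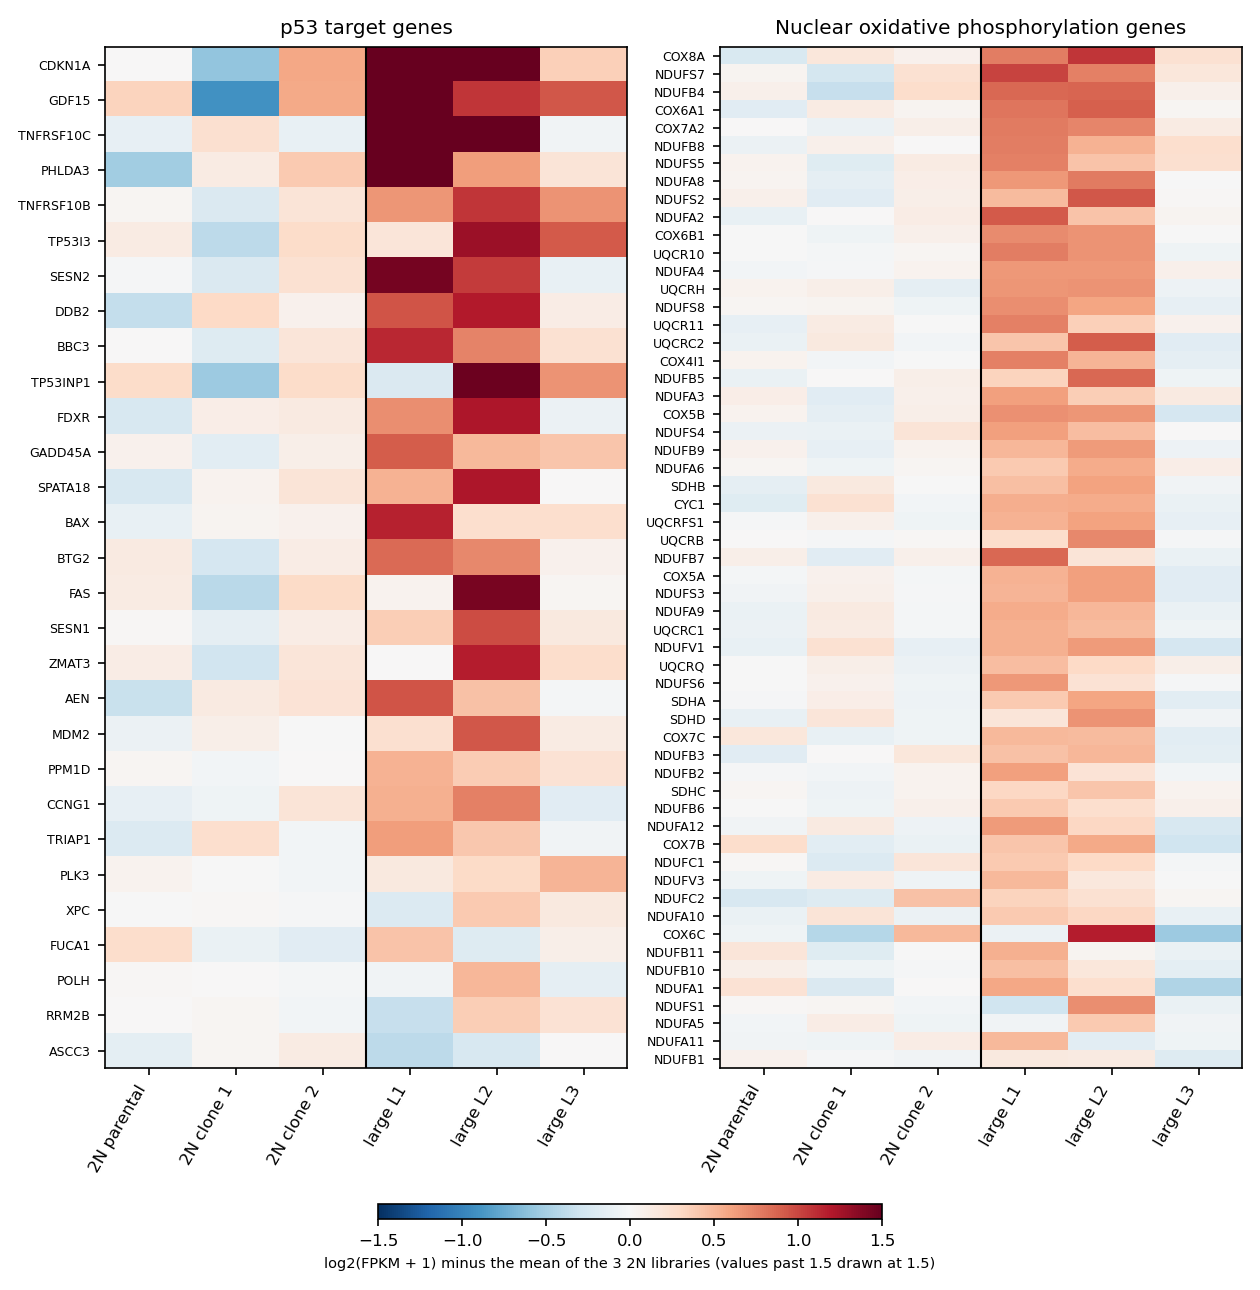
Heat maps of the 29 tested p53 targets and the 57 tested nuclear oxidative phosphorylation genes (one per line, ordered by log2 difference) in the 6 CAL51 libraries (columns). Colour gives log2(FPKM + 1) minus the mean of the 3 2N libraries, with red for higher and blue for lower. L1 and L2 are red over most genes of both lists, and L3 is pale over most of the oxidative phosphorylation genes.

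Genes of mitochondrial respiration were higher in L1 and L2 and not in L3. All 57 tested nuclear genes of oxidative phosphorylation were higher in the large group mean, with a median of 0.32, and 6 of them were at an unadjusted p under 0.05 (2.57% of all tested genes were higher at that p). Counted by clone, 53 of the 57 were above every 2N library in L1 and 54 in L2, where 41.6% and 30.4% of all tested genes were. In L3, 8 were above and 22 below, against 28.3% and 26.1% of all tested genes. COX8A, a subunit of cytochrome c oxidase, was at 214, 283 and 263 FPKM in the 2N libraries and 429, 531 and 296 FPKM in L1, L2 and L3. NDUFB8, a subunit of complex I, was at 4.80, 5.49 and 5.15 FPKM against 9.48, 7.82 and 6.32 FPKM. The 13 mRNAs made by the mitochondrial genome were highest in L2, with a mean relative to the 2N libraries of 0.23 in L1, 0.61 in L2 and -0.25 in L3. Their group median of 0.21 was 0.00 without L2 and 0.43 without L3. Mitochondrial genes took 4.83%, 7.60% and 3.96% of reads in those clones and 4.03% to 5.11% in the 2N libraries. Of 73 mitochondrial ribosomal protein genes 68 were higher, with a median of 0.20. These lists hold short genes (median length 2263 bases for oxidative phosphorylation, 4618 over all tested genes), the direction in which L1 differed from the 2N libraries. After the adjustment the medians were 0.27 for oxidative phosphorylation, with 56 of 57 higher, and 0.14 for mitochondrial ribosomal proteins. Without L3 the oxidative phosphorylation median was 0.53, and without L1 it was 0.23. The mitochondrial ribosomal median was 0.07 without L1 and 0.35 without L3.

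Cytosolic ribosomal protein genes followed L1 alone. In L1, 70 of 74 were above every 2N library (41.6% of all tested genes were). Below every 2N library were 44 in L2 and 53 in L3, against 30.9% and 26.1% of all tested genes. Their group median of 0.10 turned to -0.13 without L1. After the adjustment for length and GC content it was 0.05, with 51 of 74 higher. Cholesterol and fatty acid synthesis genes were highest in L2, where 25 of 31 were above the 2N range (30.4% of all tested genes were). In the group mean 28 of 31 were higher, with a median of 0.22. That median was 0.14 without L2 and 0.12 without the parental library.

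Genes of chromosome segregation were slightly lower in the large clones. Of 39 tested spindle, mitotic kinase and cytokinesis genes 37 were lower, with a median of -0.13, and 8 lay below the 2N range in each large clone, as did 5.14% of all tested genes. NEK2, a centrosome kinase of mitotic entry, was at 20.47, 20.1 and 18.9 FPKM in the 2N libraries and 11.7, 16.6 and 15.7 FPKM in the large clones. CDC25B, the phosphatase that activates CDK1, was at 59.5, 53.4 and 52.955 FPKM against 33.3, 45.7 and 45.7 FPKM. Of 25 genes for cohesin, condensin and the SMC5/6 complex 21 were lower, with a median of -0.23, and 9 lay below the 2N range in each large clone. PDS5A, which regulates how cohesin holds DNA, was at 28.6, 37.6 and 26.9 FPKM against 14.7, 23.1 and 22.8 FPKM (-0.61 ± 0.23, unadjusted p = 0.0316, limma adjusted p = 0.889), and its difference was -0.40 without L1. The condensin ATPase SMC4 was at 28.6, 31.2 and 29.2 FPKM against 9.39, 27.3 and 14.2 FPKM, with L2 close to the 2N range.

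The same direction held for kinetochore and spindle checkpoint genes (29 of 37 lower, median -0.15), centrosome and centriole genes (23 of 30, median -0.17) and homologous recombination and Fanconi genes (23 of 28, median -0.20). PCNT, the pericentrin scaffold of the centrosome, was at 10.7, 10.2 and 9.60 FPKM in the 2N libraries and 6.34, 7.94 and 7.89 FPKM in the large clones. PLK4, the kinase that starts centriole duplication, was at 13.2 to 15.2 FPKM against 6.78 to 12.7 FPKM. In each of these 5 lists L1 was the lowest library, with a list mean relative to the 2N libraries of -0.55 to -0.36, against -0.12 to -0.06 in L2 and -0.11 to 0.01 in L3. All 5 lists have a GC content below the median of all tested genes (48.4%), from 40.8% to 46.4%. After the adjustment the number of lower members was 36 of 39, 23 of 25, 29 of 37, 22 of 30 and 23 of 28 in the order given, with medians of -0.20 to -0.10. Without L1 the 5 medians were -0.09, -0.09, -0.07, -0.06 and -0.08 in the same order. They were -0.22 for the spindle list without L2, and -0.25 and -0.28 for the kinetochore and centrosome lists without L3.

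Among the genes of the RB pathway, RB1 was below the 2N range in each large clone (15.3, 19.3 and 15.2 against 8.64, 14.2 and 13.1 FPKM), and its relative RBL1 was at 8.25 to 8.61 FPKM in the 2N libraries and 4.21, 4.44 and 8.05 FPKM in L1, L2 and L3, with L3 just below the 2N range. CCND1, CCNE1 and MYC overlapped between the groups. Of the lamina genes LMNA and LMNB1 overlapped. SYNE2, which links the nuclear envelope to the cytoskeleton, was at 4.64, 4.39 and 4.42 FPKM in the 2N libraries and 1.50, 3.79 and 1.85 FPKM in the large clones. PIDD1, the sensor of extra centrosomes in the tetraploidy checkpoint and itself a p53 target, was at 6.66 to 7.86 FPKM in the 2N libraries and 15.4, 12.6 and 6.94 FPKM in L1, L2 and L3.

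Of 28 tested genes of myosin II and contractility 17 were higher and 11 lower in the large group, with a median of 0.21, and 3 lay above the 2N range in each large clone (6.1% of all tested genes did). That median was 0.07 without 2N clone 1, 0.08 without L1, 0.12 without L3 and 0.34 without L2. Of 32 matrix, proteoglycan and protease genes 15 were higher and 17 lower, with a median of -0.06 and list means of -0.10, -0.59 and 0.22 in L1, L2 and L3. The matrix median changed sign without L2 (0.15) and without the parental library (0.02), and it was -0.11 without 2N clone 1, -0.18 without L1, -0.03 without 2N clone 2 and -0.36 without L3. TPM1, a tropomyosin of stress fibres, was at 99.2, 110 and 136 FPKM in the 2N libraries and 159, 197 and 260.5 FPKM in the large clones (0.82 ± 0.23, unadjusted p = 0.00986, limma adjusted p = 0.889). MYL9, a light chain of myosin II, was at 131, 104 and 56.7 FPKM against 272, 145 and 258 FPKM, and TAGLN at 52.5, 37.6 and 45.1 FPKM against 178, 56.9 and 128 FPKM. In all 3 genes the groups did not overlap, and L2 was the lowest large clone for MYL9 and TAGLN. The myosin heavy chains bound by blebbistatin overlapped, with MYH9 at 142 to 161 FPKM in the 2N libraries and 77.2 to 219.5 FPKM in the large clones, and MYH10 at 50.7 to 96.0 against 78.1 to 217 FPKM. Of 18 mesenchymal genes 14 were higher, with a median of 0.50, led by the collagen crosslinker LOX (0.753 to 2.19 against 2.70 to 4.83 FPKM). That list was lowest in 2N clone 1, at -0.89 relative to the other 2N libraries, and without that clone 10 of 18 were higher, with a median of 0.13. The median was 0.29 without L1 and without L3. The 6 mesenchymal markers summed to 77.1 to 197 FPKM in the 2N libraries and 147 to 575 FPKM in the large clones, and their part in these results was not tested.

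2N clone 1 differed from the other 2N libraries in several surface genes that bear on the comparison. CD44, the hyaluronan receptor, was at 41.9 FPKM in 2N clone 1, at 7.97 and 3.59 FPKM in the other 2N libraries and at 0.887 to 4.67 FPKM in the large clones. Keratins varied widely. KRT8 was at 181, 559 and 72.0 FPKM in the 2N libraries and 1964, 32.5 and 62.3 FPKM in L1, L2 and L3, so that L1 and 2N clone 1 were high and the groups overlapped. GPC3, a glypican, was at 155, 92.8 and 219 FPKM against 303, 280 and 364 FPKM (1.09 ± 0.32, unadjusted p = 0.0113, limma adjusted p = 0.889), with no overlap. The protease MMP28 was at 5.07, 14.2 and 1.40 FPKM against 0.534, 0.0512 and 0.0938 FPKM.

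Of 32 immediate early and MAPK feedback genes 12 were higher and 20 lower, with a median of -0.09 that turned to 0.04 without L1. It was -0.02 without the parental library, -0.18 without 2N clone 1, -0.14 without L2 and -0.28 without L3. The AP-1 subunits of smallest p in that list lay on both sides. FOS was at 36.7, 13.3 and 25.7 FPKM in the 2N libraries and 4.33, 7.58 and 11.7 FPKM in the large clones (-1.54 ± 0.43, unadjusted p = 0.00979, limma adjusted p = 0.889), and FOSL2 at 14.0, 27.1 and 8.55 FPKM against 5.72, 2.15 and 3.49 FPKM. FOSL1, given above, and JUND were higher, JUND at 71.9, 74.2 and 76.1 FPKM against 130, 98.1 and 141 FPKM. None of the 4 overlapped between the groups, but they were picked by p. Over the list of 32, 3 genes lay above and 2 below the 2N range in each large clone. Of all tested genes 6.1% and 5.14% did. WLS, the carrier that brings WNT ligands to the surface, was at 61.2, 39.8 and 60.8 FPKM against 394, 129 and 114 FPKM, and the receptor FZD8 at 2.09 to 2.58 against 3.20 to 4.79 FPKM. Over the whole WNT list 13 of 26 genes were higher. Of 9 imprinted genes 5 were higher and 4 lower, and GRB10 lay below the 2N range in each large clone. Above that range in each large clone, where 6.1% of all tested genes lay, were 4, namely BLCAP (6.91 to 7.28 against 10.2 to 11.8 FPKM), SNRPN, PHLDA2 and PLAGL1. PLAGL1, a zinc finger regulator of growth, was at 2.66, 0.0732 and 2.40 FPKM against 4.63, 4.40 and 5.70 FPKM, with 2N clone 1 nearly without it.

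**Figure D3:**
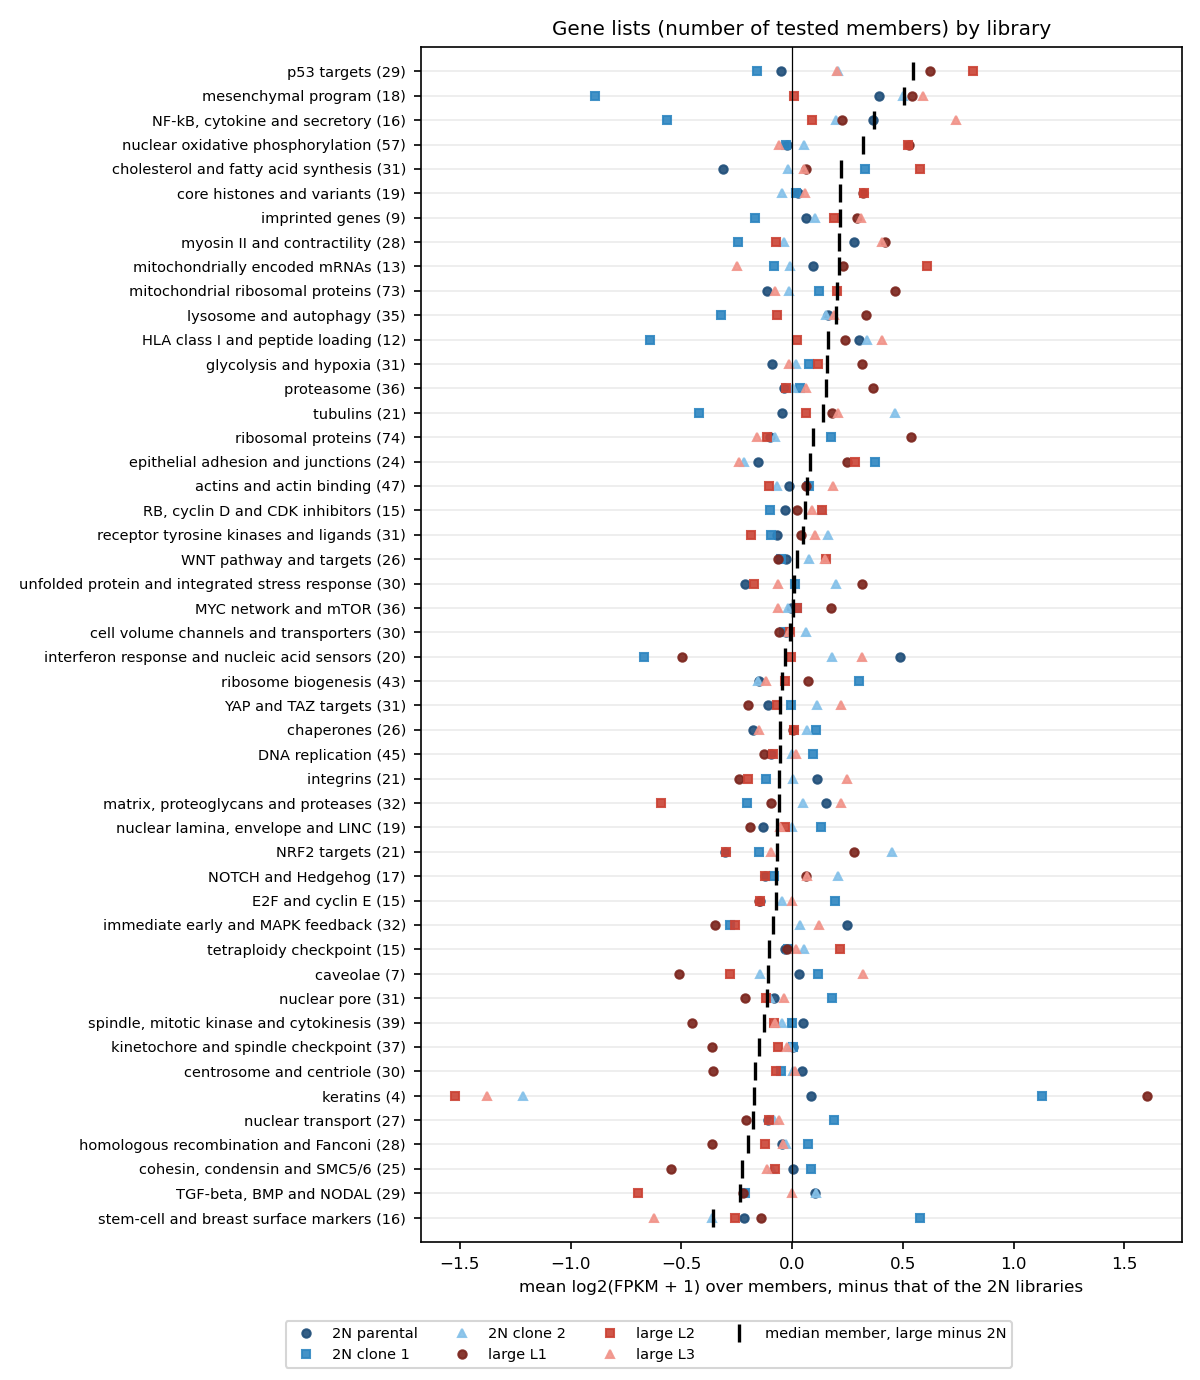
Mean log2(FPKM + 1) over the members of each of 48 gene lists (number of tested members in brackets), relative to the 2N libraries, for each library; a 2N library is set against the other 2N libraries. Black bars give the median log2 difference of the members between large clones and 2N libraries. Over all 6 libraries the p53 targets lie highest at 0.54, and L3 lies close to the 2N libraries for many lists in which L1 or L2 stand away.

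Genes of single chromosomes were compared next, since tetraploid clones can gain or lose chromosomes. For each library the median log2 difference to the 2N libraries was taken over the genes of a chromosome with a mean of 5 FPKM or more, relative to all such genes. In L2, chromosome 10 had a median of 0.25 (298 genes) and chromosome 11 a median of 0.27 (425 genes), and no other chromosome reached 0.2 in size. In L1, chromosomes 13, 18 and 19 had medians of -0.32, -0.23 and 0.27. In L3 no chromosome reached 0.2. The SD of the medians over the 22 autosomes was 0.14 in L1, 0.09 in L2, 0.03 in L3 and 0.02 to 0.03 in the 2N libraries. After the adjustment for length and GC content the medians of L2 were 0.25 and 0.28, while no chromosome of L1 reached 0.2 and its SD was 0.05. An exact two-sided permutation test of large against 2N libraries, which cannot go below 0.1 with 3 against 3, gave adjusted p values of 0.767 or more over 23 chromosomes. Chromosome X differed within the 2N group, at 0.26 in the parental library and -0.25 in 2N clone 1.

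Of the 24 genes named for the comparison, DUSP8, ST14, ABTB2 and FOSL1 lie on chromosome 11 and STOX1 on chromosome 10. ZIC2 and SPATA13 lie on chromosome 13 and ZNF114 on chromosome 19. The part of the chromosome in these differences was not tested. Of 680 tested genes on chromosome 11, 47 were at an unadjusted p under 0.05 (6.91%, against 4.56% of all tested genes). The share was 5.77% on chromosome 10. Over all chromosomes it ran from 1.93% on chromosome 13 to 9.24% on chromosome 21, where no large clone reached 0.2 in size.

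**Figure D4:**
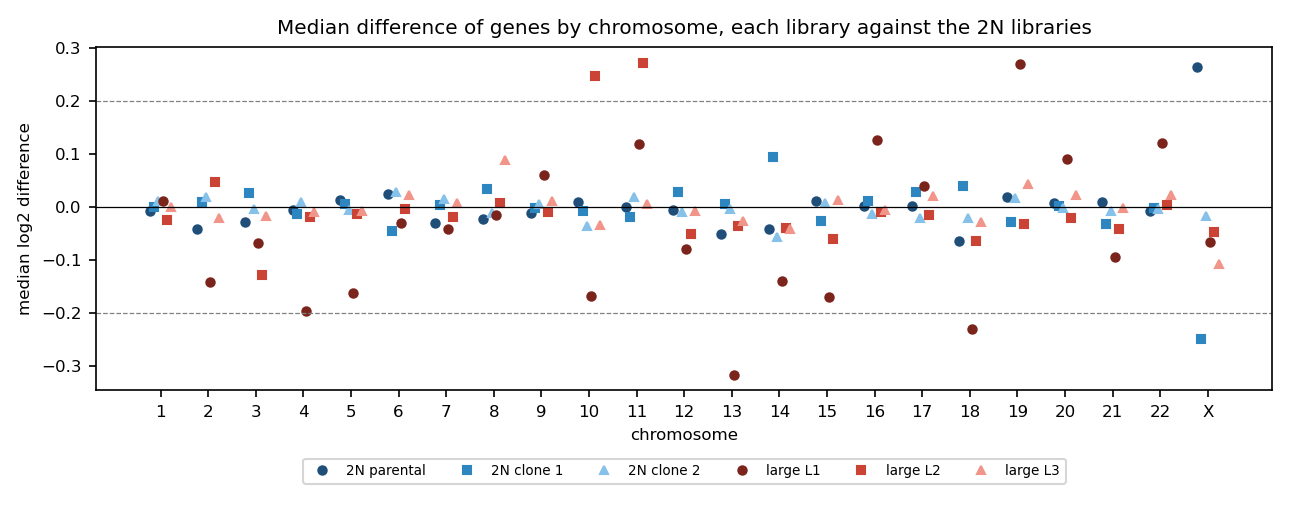
Median log2 difference to the 2N libraries of the genes on each chromosome (horizontal axis) in each CAL51 library, with dashed lines at -0.2 and 0.2. Clone L2 stands out on chromosomes 10 and 11, clone L1 on chromosomes 13, 18 and 19, and 2N libraries on chromosome X.

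The same contrast was made in HCT116 (3 large clones and 3 2N libraries, also made with blebbistatin) and DLD1 (4 large clones and 3 2N libraries, made with dihydrocytochalasin), both colorectal lines, and the difference between lines was tested as an interaction in the fit of 26 libraries. The effect in CAL51 differed from that in HCT116 for 178 of 14835 genes (1.2%), 112 upward (0.755%) and 66 downward (0.445%). It differed from that in DLD1 for 23 (0.155%), 9 upward (0.0607%) and 14 downward (0.0944%). With a pseudocount of 0.1 these counts were 83 and 9, and with the parental libraries left out they were 23 and 7. Of the 24 genes named above, 14 differed from HCT116 and 10 from DLD1. They were chosen for their difference in CAL51, which enters the interaction, so shares above those of all genes are not a result. LEFTY1, ID4, IRX6 and FOXL2 had group means under 1 FPKM in both of the other lines, so for them the difference is that between a line with the gene and lines almost without it.

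Other genes were well expressed in more than 1 line. ITPR3 was at 39.5 ± 2.93 (SD, n = 3) and 46.0 ± 3.05 (n = 3) FPKM in 2N and large HCT116 and at 25.8 ± 3.73 (n = 3) and 29.1 ± 3.36 (n = 4) in DLD1, far above the CAL51 2N libraries. Its CAL51 difference was below that of HCT116 by -1.84 ± 0.23 (limma adjusted p = 0.000324) and below that of DLD1 by -1.80 ± 0.22 (adjusted p = 0.000572). ZIC2 had similar levels in the 2N libraries of all 3 lines, with means of 17.6, 17.5 and 18.5 FPKM, and large clone means of 35.6, 12.9 and 19.05 FPKM in CAL51, HCT116 and DLD1. Its difference in CAL51 was above that in HCT116 by 1.43 (limma adjusted p = 0.00874), and against DLD1 the adjusted p was 0.205. PCDH7 was higher in the CAL51 large clones and lower in those of HCT116, at 12.7 ± 0.511 and 6.75 ± 2.25 FPKM there (limma adjusted p = 0.0447), where 703 genes passed (4.74%), 378 of them lower (2.55%). FOSL1 had log2 differences of 1.34, 0.82 and -0.37 in CAL51, HCT116 and DLD1, with no difference between lines past the threshold (limma adjusted p = 0.551 and 0.0884).

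**Figure D5:**
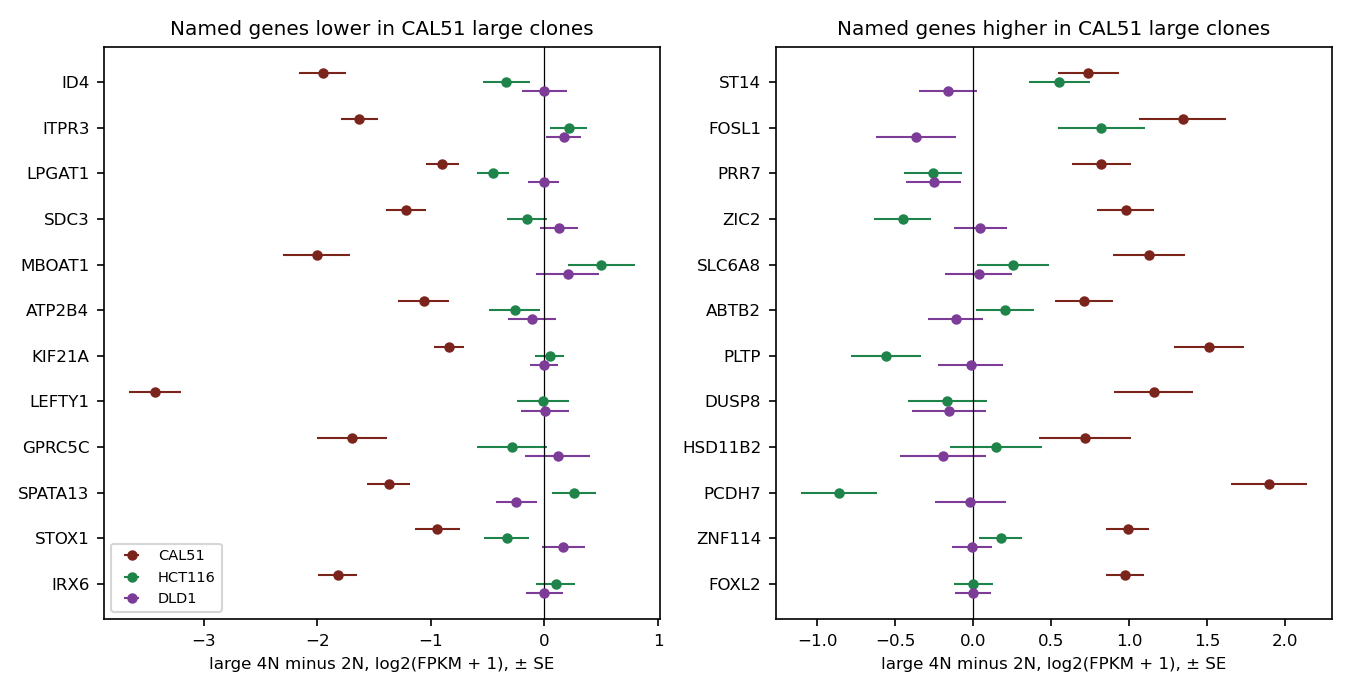
Large 4N minus 2N difference in log2(FPKM + 1) of the 24 named genes in CAL51, HCT116 and DLD1, from the fit of 26 libraries, with bars of 1 SE. The CAL51 values lie away from 0 because the genes were chosen in that line, and most values of HCT116 and DLD1 lie nearer to 0.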

How the data were processed

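RNA of 26 libraries was sequenced as poly-A, strand-marked libraries. Per the submitters' processing notes, the authors used fastp, HISAT2 2.0.5, featureCounts 1.5.0-p3 and DESeq2 with GRCh38; how these steps were set is not given in the sources used here. The authors deposited FPKM for 58735 genes, whose IDs all matched GENCODE release 29. The low values were whole multiples of 1 read (100% whole within 0.01), which gave the depth of each library. FPKM is scaled within a library, so total RNA per cell was not measured.

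Genes with at least 1 FPKM in 3 of the 6 CAL51 libraries were tested on log2(FPKM + 1) with limma 3.58.1 in R 4.3.3 (intensity trend, Benjamini-Hochberg adjustment at 0.05, 3 against 3). The tests were tested on simulated data. The members, the gene lists and the tests were chosen with earlier results of these data known. Genes named for the comparison were, in each direction, the 12 protein-coding genes of smallest p, with a mean of 1 FPKM or more, whose groups did not overlap. Chromosomes were named where the median of a large clone reached 0.2 in size, and interactions by the 5 smallest p in each direction. Each list gives up to 4 genes of smallest p, beside a fixed panel; other genes named within lists or from the fit of 26 libraries were chosen after their values were seen. Alternatives changed the pseudocount, filter, scaling, trend, libraries in the fit and test (limma voom on recovered reads), and left out each library. The adjustment for log2 gene length and transcript GC content, fitted per library, was added after the data were seen. Promoter sequences came from RefSeq (GRCh38.p14). Values of some genes are not reported here.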

Additional observations from a re-analysis of the deposited data

Results flagged for a closer look

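For these genes the large 4N against 2N difference in CAL51 departed from that in another line by an interaction test (limma over 26 libraries, adjusted p under 0.05), and they are the 5 of smallest p in each direction. Against HCT116, the log2 difference in CAL51 was higher by 2.98 for SAT1, a polyamine acetyltransferase, by 2.755 for PCDH7, by 2.068 for PLTP, by 1.733 for SCX and by 1.346 for DNAJC4. SAT1 was at 136 ± 9.98 FPKM in 2N and 220.2 ± 80.0 FPKM in large CAL51, and at 291 ± 41.6 and 61.5 ± 35.6 FPKM in HCT116 (SD, n = 3 each). For SAT1, SCX and DNAJC4 the drop in HCT116 was the larger part, with log2 differences of -2.36, -1.19 and -0.79 there. In CAL51 they were 0.62, 0.55 and 0.55, not past the threshold (limma over 26 libraries, adjusted p = 0.428, 0.258 and 0.140). PCDH7 and PLTP had 1.89 and 1.51 in CAL51 and -0.86 and -0.56 in HCT116. The interaction was -3.41 for LEFTY1, -2.405 for B3GNT7, -1.921 for IRX6, -1.842 for ITPR3 and -1.755 for AFAP1L1.

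Against DLD1, the interaction was 2.332 for KANK4, 1.912 for PCDH7, 1.624 for CX3CL1, 1.001 for ZNF114 and 0.9728 for FOXL2. It was -3.431 for LEFTY1, -1.95 for ID4, -1.821 for IRX6, -1.797 for ITPR3 and -1.347 for SDC3. LEFTY1, IRX6, ID4, FOXL2, KANK4, CX3CL1, PCDH7 and ZNF114 had group means under 1 FPKM in both DLD1 groups. SDC3 was at 3.19 ± 0.387 (n = 3) and 3.59 ± 0.606 (n = 4) FPKM there, against 14.3 ± 0.840 and 5.72 ± 1.74 FPKM (n = 3 each) in CAL51.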

How the results depend on the processing

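The number of genes past an adjusted p of 0.05 was 0 in each direction, and 68 higher and 86 lower with 26 libraries in 1 fit. Leaving out each library in turn gave 0 to 1 lower genes, the 1 without L3. The number at an unadjusted p under 0.05 was 546, against 1283 with no filter, 290 with a mean of 5 FPKM or more, 1740 with 26 libraries and 305 to 1098 with each library left out (305 without the parental library, 316 without 2N clone 1, 1098 without L3). The count differing from HCT116 was 178, against 23 with 2N clones only and 83 with a pseudocount of 0.1; for DLD1 it was 23, against 7 and 9. For 223 named and listed genes the sign turned in 26 of 3295 values, over 14 genes, none of them at an unadjusted p under 0.05. The median turned sign in 57 of 720 values, over 23 of 48 lists. Of 40 alternative values for the 20 interactions above, some of them of the same gene against both lines, 11 lost the call. No paired analysis was possible because the 2N and large libraries are separately derived clones and a population that share no replicate numbers. The median SE of a log2 difference was 0.19 over all genes tested in the 6 libraries.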

Other observations

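Several genes differed widely between the groups while varying strongly among the large clones, and were chosen here after their values were seen. APOE, a lipid carrier, was at 21.3, 45.7 and 15.4 FPKM in the parental library, 2N clone 1 and 2N clone 2, and at 527, 112 and 49.3 FPKM in L1, L2 and L3. KANK4, a cytoskeletal adaptor, was at 0.887, 2.31 and 1.44 FPKM against 23.1, 13.3 and 4.44 FPKM. BCAT1, which starts the breakdown of branched-chain amino acids, was at 15.8, 47.0 and 3.68 FPKM against 1.67, 0.00932 and 0.0177 FPKM. In all 3 genes the groups did not overlap. None passed in the fit of the CAL51 libraries (limma adjusted p = 0.889, 0.841 and 0.889). Each passed in the fit of 26 libraries (limma adjusted p = 0.0153, 0.000307 and 0.000506), which takes the spread from 3 cell lines. Their SE was 0.84, 0.53 and 0.83 in the CAL51 fit and 0.50, 0.30 and 0.48 in that of 26 libraries. KANK4 had group means of 0.014 FPKM or less in HCT116 and DLD1. As the genes were chosen from these values, the pass is no separate support.

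POU3F3, a POU-domain transcription factor, split the large clones. It was at 30.2, 56.0 and 34.5 FPKM in the 2N libraries and 0.0804, 0.0239 and 37.9 FPKM in L1, L2 and L3. Over all 6 libraries its difference was -3.51 ± 1.35 (limma adjusted p = 0.889). Without L3, the large clone inside the 2N range, it was the gene that passed in the CAL51 comparison, at -5.24 ± 0.28 (limma adjusted p = 0.0205). That pass rests on leaving out the clone that differed.

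ID4 and MBOAT1, both lower in the large clones, lie 261460 bases apart on chromosome 6. Within 1000000 bases of the pair 1 other gene was tested, E2F3, an activator of S phase genes, at 10.6, 12.7 and 9.35 FPKM in the 2N libraries and 5.91, 7.49 and 9.59 FPKM in the large clones (-0.47 ± 0.20, unadjusted p = 0.0529, limma adjusted p = 0.889).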
